A study of Homo sapiens with 6 samples.

Results

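A set of 10 long noncoding RNA (lncRNA) genes with known links to cancer were examined for histone marks in oral squamous cell carcinoma (OSCC) cells, namely MALAT1, NEAT1, PVT1, UCA1, MIR31HG, H19, HOTAIR, LUCAT1, TUG1 and CYTOR. They were chosen by name, and are 10 of the 24135 protein-coding and lncRNA genes of the annotation used. A peak region was assigned to a gene when it overlapped the gene body or the 2 kb upstream of it in hg19 (GRCh37), and this stretch is called the locus. All 10 names were found in GENCODE, which types 9 of them as lncRNA and TUG1 as protein-coding.

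The HSC3 line is an established line of OSCC cells. They received a control siRNA (siCONT) or an siRNA against the lncRNA DLEU1 (siDLEU1) and were kept for 72 h, after which chromatin was immunoprecipitated for H3K27ac and H3K4me3 and sequenced. There was 1 library for each siRNA and mark. No value below therefore has a replicate check, no p-value is given, and a difference between lists compares 2 libraries rather than 2 conditions.

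H3K27ac is an acetylation found at active promoters and enhancers, and H3K4me3 is a methylation concentrated at the start sites of active genes. Many lncRNA genes are transcribed by RNA polymerase II from promoters that carry both marks. MALAT1 and NEAT1 make abundant nuclear RNAs, of nuclear speckles and paraspeckles respectively, UCA1 was named for urothelial carcinoma, and HOTAIR lies within the HOXC cluster.

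The depth is not stated in the peak lists, but the whole number of fragments at each summit could be solved for from a region's fold and p, and was in 100% of regions of every list. Assuming a mappable genome of 2.7 Gb, siCONT had 21.5 M reads for H3K27ac and 28.4 M for H3K4me3, and siDLEU1 had 29.4 M and 22.3 M. The H3K27ac lists held 19705 and 17672 regions and the H3K4me3 lists 58582 and 56943, in the same order, with median summits of 41 to 75 fragments. All 6 squamous epithelial markers (KRT5, KRT14, KRT17, KRT6A, TP63 and SFN) had both marks at a start site in all 4 lists, and the blood markers PTPRC and CD3E had neither in any. Of markers of other lineages, ALB and MYOD1 had neither, and GFAP had H3K4me3 alone, at percentiles of 17.6 and 24.2. At DLEU1 itself, H3K27ac covered 7565 bp in siCONT and 6769 bp in siDLEU1, and H3K4me3 22582 and 22155 bp. Since the siRNA targets the RNA, these lengths are no measure of the knockdown.

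The start sites of the 10 genes differed in base composition. In the 300 bases around the canonical start (250 before it and 50 after), MALAT1, NEAT1, PVT1, MIR31HG, HOTAIR and TUG1 had 22 to 51 CpG dinucleotides. UCA1, H19, LUCAT1 and CYTOR had 3 to 7, against a median of 21 over all genes and 7 over lncRNA genes. Motifs were searched on both strands. TGANTCA, the recognition site of the AP-1 factors, was found in LUCAT1 at -52 bases from the start and in CYTOR at -98 and -88, which are 2 of the 5 promoters shown, and in 6.39% of 24018 promoters of the same length. TATAAA, the TATA box, was found in NEAT1 at -31, and in 10.3% of all promoters. GAAANNGAA, the core of the interferon-stimulated response element, was in none of the 5 and in 7.45% of all. A match is a description of the letters only. The promoters below are those of 5 genes on which the results turn, read from GRCh37 5′ to 3′ along the gene's strand, with motif matches in capitals.
MALAT1 promoter, chr11:65264861-65265160, plus strand: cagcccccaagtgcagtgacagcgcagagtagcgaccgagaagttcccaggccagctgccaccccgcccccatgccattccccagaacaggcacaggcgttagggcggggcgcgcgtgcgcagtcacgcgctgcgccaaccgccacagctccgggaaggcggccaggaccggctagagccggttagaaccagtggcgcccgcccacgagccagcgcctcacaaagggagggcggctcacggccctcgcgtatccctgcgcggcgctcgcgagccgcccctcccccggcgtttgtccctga
NEAT1 promoter, chr11:65190019-65190318, plus strand: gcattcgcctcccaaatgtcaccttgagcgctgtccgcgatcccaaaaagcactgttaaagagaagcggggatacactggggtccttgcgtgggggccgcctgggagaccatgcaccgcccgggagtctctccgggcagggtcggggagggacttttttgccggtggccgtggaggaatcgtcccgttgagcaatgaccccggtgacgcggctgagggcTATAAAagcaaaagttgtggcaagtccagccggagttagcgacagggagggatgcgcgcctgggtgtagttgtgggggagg
MIR31HG promoter, chr9:21559799-21560098, minus strand: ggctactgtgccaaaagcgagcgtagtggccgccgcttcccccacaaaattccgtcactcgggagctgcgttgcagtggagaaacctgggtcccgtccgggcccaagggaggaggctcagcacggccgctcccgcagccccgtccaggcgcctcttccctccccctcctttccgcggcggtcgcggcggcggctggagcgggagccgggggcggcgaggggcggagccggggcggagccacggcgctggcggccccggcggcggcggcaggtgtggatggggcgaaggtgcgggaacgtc
LUCAT1 promoter, chr5:90610170-90610469, minus strand: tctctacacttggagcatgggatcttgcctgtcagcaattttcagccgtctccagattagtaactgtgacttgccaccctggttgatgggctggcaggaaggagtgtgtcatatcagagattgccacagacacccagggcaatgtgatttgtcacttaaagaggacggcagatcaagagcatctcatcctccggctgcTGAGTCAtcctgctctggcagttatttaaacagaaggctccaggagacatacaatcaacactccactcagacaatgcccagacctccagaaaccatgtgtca
CYTOR promoter, chr2:87754775-87755074, plus strand: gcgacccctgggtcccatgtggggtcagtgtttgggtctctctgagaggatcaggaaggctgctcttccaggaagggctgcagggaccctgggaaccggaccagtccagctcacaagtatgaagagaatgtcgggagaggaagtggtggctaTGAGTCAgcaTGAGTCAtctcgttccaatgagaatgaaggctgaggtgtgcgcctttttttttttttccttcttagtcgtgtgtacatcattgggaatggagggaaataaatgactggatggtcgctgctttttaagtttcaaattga

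MIR31HG and H19 are also the host genes of miRNAs, MIR31 and MIR675. Their mature sequences are shown to identify these products, as listed in RefSeq (GRCh38.p14), with the seed (bases 2 to 8) in capitals. The 3 seeds differ from one another.
hsa-miR-31-5p: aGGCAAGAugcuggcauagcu
hsa-miR-675-3p: cUGUAUGCccucaccgcuca
hsa-miR-675-5p: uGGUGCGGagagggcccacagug

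H3K27ac was called at 9 of the 10 loci in siCONT and at 7 in siDLEU1, and H3K4me3 at 9 and at all 10. Over all genes, 58.7% had an H3K27ac region in siCONT and 62.7% an H3K4me3 region. Over lncRNA genes alone, the shares were 37.1% and 45.2%. Of 14176 genes with H3K27ac in siCONT, 13246 also had it in siDLEU1, and for H3K4me3 14696 of 15135 did. At UCA1, the siDLEU1 H3K27ac region began 3 bp past the end of the locus. With 2 kb added on both sides, 8 of the 10 loci had H3K27ac in both lists. Every H3K27ac region at the 10 loci, 14 in each list, overlapped an H3K4me3 region of the same siRNA. Over all H3K27ac regions, 88.6% did in siCONT and 93.7% in siDLEU1. In the other direction, 10 of the 102 H3K4me3 regions in siCONT (9.80%) overlapped H3K27ac, and 12 of 123 in siDLEU1 (9.76%). The share over all H3K4me3 regions was 33.1% and 27.3%. PVT1 and CYTOR held 40 and 28 of the H3K4me3 regions in siCONT, and 35 and 34 in siDLEU1. At each of these 2 loci, only 1 H3K4me3 region overlapped H3K27ac in either list. The low pooled share thus rests largely on PVT1 and CYTOR.

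The genes with H3K27ac within 1 kb of any annotated start in both lists were CYTOR and the 6 with 22 or more CpG at the canonical start. At MALAT1, with 40 annotated starts, the canonical start lay at chr11:65265111 and the first siDLEU1 region began at chr11:65266787. The canonical start of MALAT1 thus had no H3K27ac within 1 kb in siDLEU1. Among all 11653 genes with at least 22 CpG, 82.3% had H3K27ac within 1 kb of any annotated start in siCONT and 78.9% in siDLEU1. Among the 6749 genes with at most 7 CpG, the shares were 12.1% and 9.85%. UCA1, H19 and LUCAT1 had no H3K27ac region within 1 kb of any annotated start in either list.

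The length of each locus inside regions was compared first. At the 10 loci together, H3K27ac covered 23661 bp in siCONT and 21294 bp in siDLEU1, a ratio of 0.900 of the summed lengths. The median ratio of the single loci was 0.917, against 0.762 over all genes with a region in siCONT. Covered length was lower in siDLEU1 at 7 of the 9 loci, against 94.1% of all genes, and higher at PVT1 and CYTOR. It was at least 1.5 times lower at 2 of them, UCA1 and LUCAT1, against 32.2% of all genes. UCA1 depended on the edge of its locus, and with 2 kb added on both sides its ratio was 0.693 and only LUCAT1 remained. None was at least 1.5 times higher, against 0.346% of all genes. With equal numbers of regions, and at a −log10 q of at least 10, PVT1 was at least 1.5 times higher. At that q, TUG1 was also at least 1.5 times lower. H3K4me3 covered 124833 and 107441 bp, a ratio of 0.861 of the summed lengths. The median ratio of the single loci was 0.926, against 0.896 over all genes. H3K4me3 length was lower at 6 of 9 loci, against 68.6% of all genes, and higher at UCA1, LUCAT1 and TUG1. No locus was at least 1.5 times lower for H3K4me3, against 17.3% of all genes, and UCA1 alone was at least 1.5 times higher, against 6.8%. Its ratio of 1.52 was just past that limit, and was 1.46 for the gene body alone, 1.28 with 2 kb on both sides and 1.17 at a −log10 q of at least 10. With that stricter q, NEAT1 and MIR31HG were at least 1.5 times lower for H3K4me3. Shares of all genes were computed only for loci with 2 kb upstream and all regions. For loss of length there, the counts at these loci were not above those shares.

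**Figure D1:**
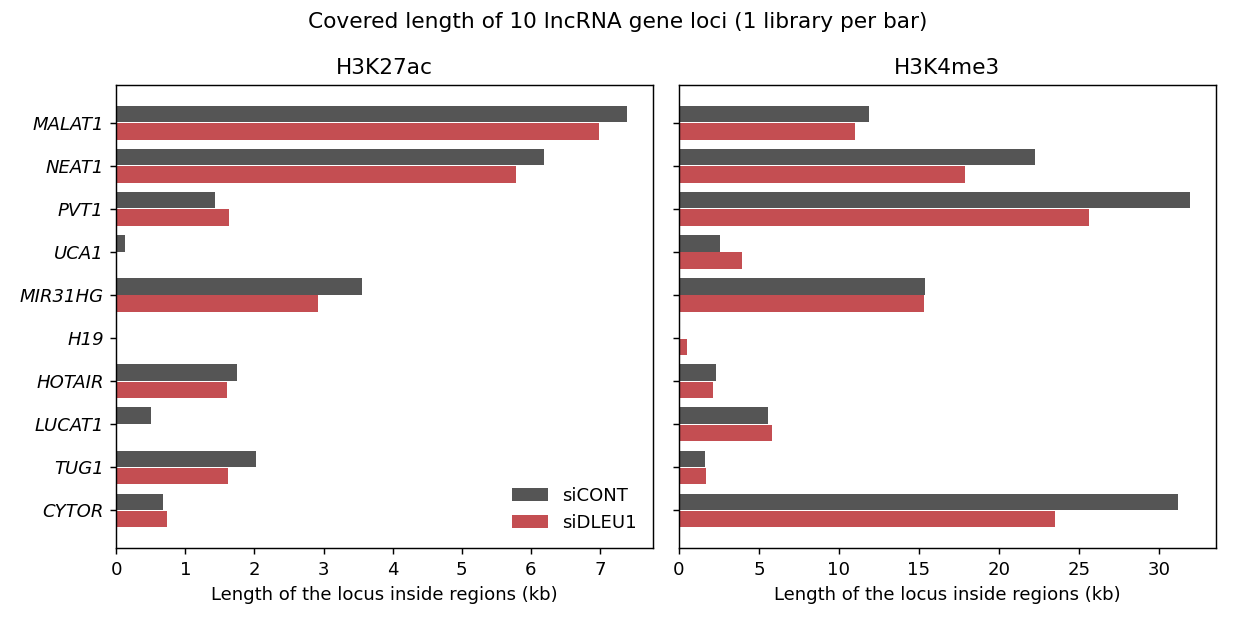
Length of each locus inside H3K27ac (left) and H3K4me3 (right) regions, in kb, in the siCONT library (grey) and the siDLEU1 library (red), with 1 library per bar and no error. MALAT1 and NEAT1 had the longest H3K27ac cover in both libraries, and PVT1 and CYTOR, the loci with the most H3K4me3 regions, lost the most H3K4me3 length.

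Fold enrichment is not comparable between lists, so the strongest region of a locus was ranked among all regions of the same list. The percentile is 100 for the list's top region and 0 for a locus with none. For H3K27ac, the percentile was lower in siDLEU1 at 7 of 9 loci, against 63.2% of all genes, and higher at TUG1 and CYTOR. It was at least 10 points lower at 5 (MALAT1, PVT1, UCA1, MIR31HG and LUCAT1), against 37% of all genes, and at least 10 points higher at CYTOR, against 16.5%. The median change was -16.2 points over the 9 loci, -4.79 over all genes and -6.78 over lncRNA genes. These figures depended on the value that ranks regions. Ranked by fragments, 2 loci (UCA1 and LUCAT1) were at least 10 points lower, against 31.3% of all genes, and the median change was -4.74, against -4.49. Ranked by width, 3 loci (UCA1, LUCAT1 and TUG1) were, against 30.8%, and the median change was -0.023, against -1.14. The fall of UCA1 to a percentile of 0 comes from the edge of its locus. Its siDLEU1 region past that edge was 606 bp wide, near the list's median of 608 bp. With 2 kb on both sides, UCA1 was 18.4 points lower by fold, and the ranks by width and fragments were not recomputed. For H3K4me3, the percentile by fold was lower at 4 loci, against 48.5% of all genes, and higher at 5. The median change was 0.115 points, against 0.190 over all genes. None was at least 10 points lower, against 18.6% of all genes, and TUG1 was at least 10 points higher, against 18.5%. MALAT1, NEAT1, PVT1, UCA1, MIR31HG and CYTOR were at 96.5 or above in siCONT, so a rise of 10 points was not possible there. The count of rises is therefore limited by the starting rank.

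**Figure D2:**
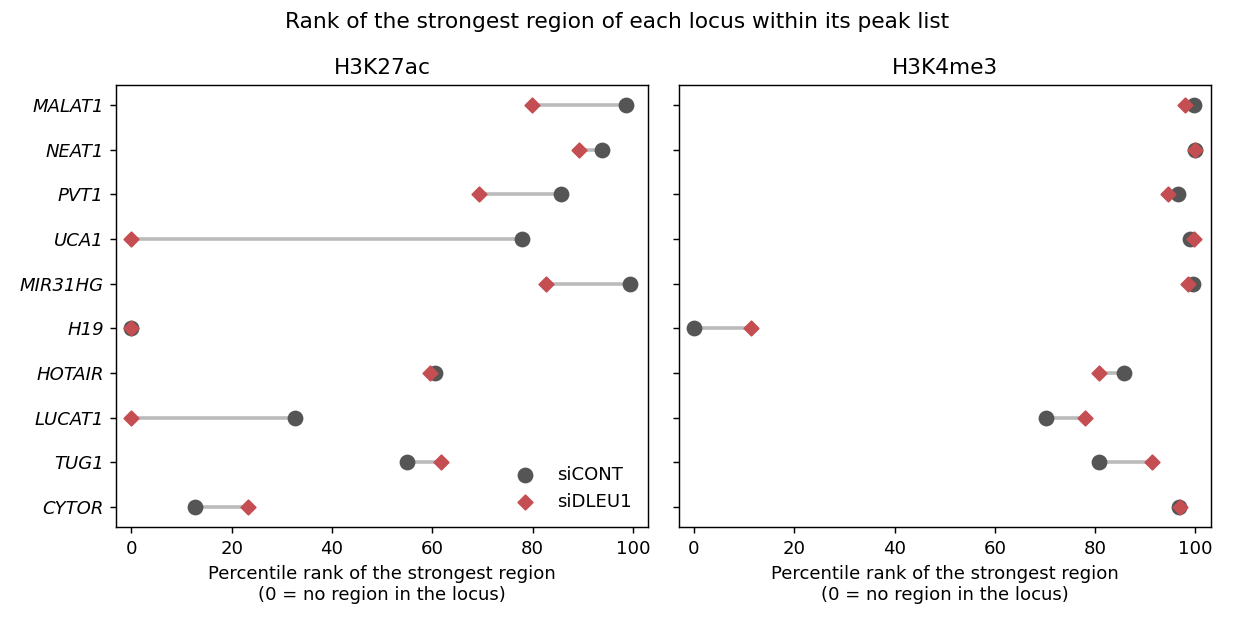
Percentile rank of the strongest H3K27ac (left) and H3K4me3 (right) region of each locus within its own peak list, in siCONT (grey circles) and siDLEU1 (red diamonds), where 0 means no region in the locus. By fold, H3K27ac ranks were at least 10 points lower in siDLEU1 at MALAT1, PVT1, UCA1, MIR31HG and LUCAT1, of which UCA1 and LUCAT1 were also so by fragments, while 6 loci stayed above 94 in both H3K4me3 lists.

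The percentile rests on the fold over the local control, and control coverage here was shallow. The local control was at the genome-wide background in 31.3% to 39.5% of the regions of a list, and at the value that 1 control read gives in up to a further 28.6%. A step of a single control read thus changes a fold. Summit coverage, the fragments at the summit over the mean coverage of the library, does not use the control. Its ratio between siDLEU1 and siCONT had a median of 0.616 over all genes for H3K27ac (5th to 95th percentile 0.464 to 0.839) and of 1.24 for H3K4me3 (0.761 to 1.95). At the 10 loci the median ratio was 0.637 for H3K27ac (7 loci, 0.515 to 1.22) and 1.18 for H3K4me3 (9 loci, 0.936 to 1.70). The intervals given with single ratios are exact 95% intervals and cover the counting of fragments only.

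**Figure D3:**
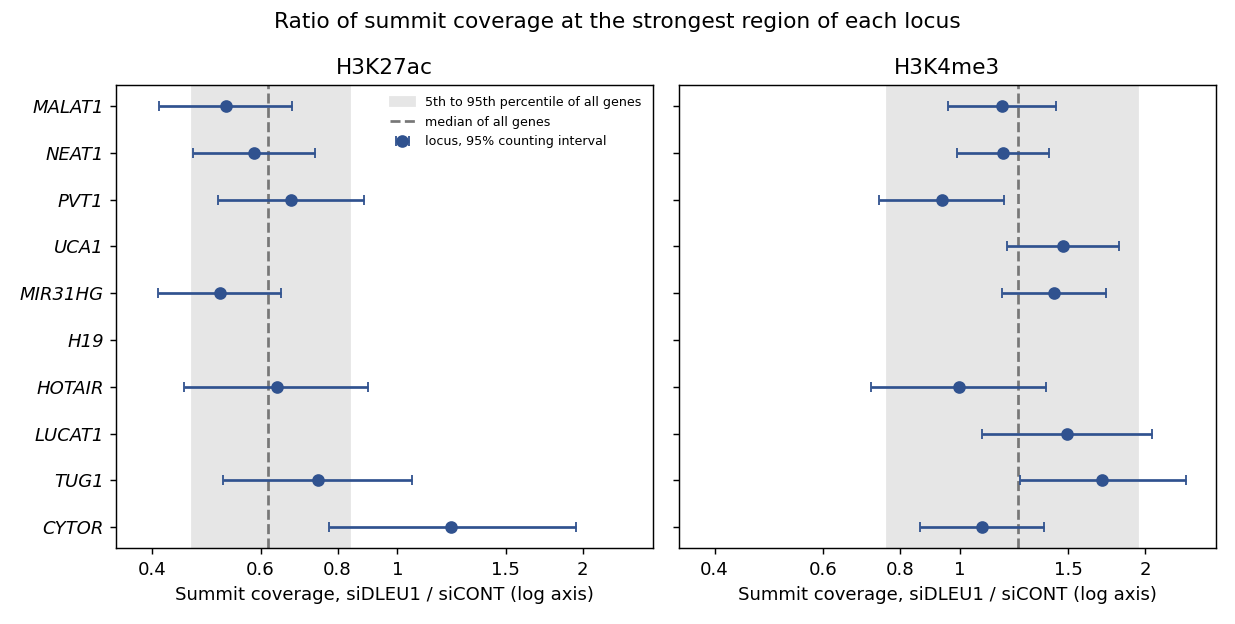
Ratio of summit coverage, siDLEU1 over siCONT, at the strongest region of each locus (points, log axis) with exact 95% counting intervals, for H3K27ac (left) and H3K4me3 (right). The dashed line is the median over all genes (0.616 and 1.24) and the grey band their 5th to 95th percentile, and CYTOR at 1.22 is the only H3K27ac point outside the band.

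MALAT1 is the source of a nuclear RNA that was first described through its link to metastasis in lung cancer. Its gene, ENSG00000251562 (chr11:65265111-65275544, plus strand), has a single-exon canonical transcript. In siCONT a 7012-bp H3K27ac region (chr11:65266474-65273485) lay wholly within this exon and was the widest of the 19705 regions of the list. In siDLEU1 the same stretch held regions of 294, 4398 and 2301 bp. Covered length was 7399 and 6993 bp, a ratio of 0.945, so the stretch was called as several regions with little difference in length. A small region of 387 bp near the 5′ end, with 36 fragments, was called in siCONT only.

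The strongest H3K27ac region of MALAT1 had 165 fragments at its summit in siCONT and 112 in siDLEU1. Summit coverage was 111 and 58.4 times the library mean. The ratio of 0.527 (0.411 to 0.674) was at or above that of 15.1% of genes. The percentile was 98.6 and 79.9, and the local control at the summit was 1.02 times the genome background in siCONT and 2.01 times in siDLEU1. Ranked by fragments, the percentiles were 95.5 and 87.4, and the part of the control in the difference was not tested. For H3K4me3, a 9761-bp region became 5 regions of 226 to 4800 bp, and cover went from 95.7% to 88.6% of the locus. The ratio of H3K4me3 summit coverage was 1.17 (0.957 to 1.43). TALAM1, an antisense lncRNA of the same locus, overlaps these regions, and ChIP-seq does not assign them to either strand.

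NEAT1, which makes the RNA scaffold of paraspeckles, is ENSG00000245532 (chr11:65190245-65213011, plus strand). Its main H3K27ac region was 5706 bp long in siCONT (chr11:65189953-65195658) and 5222 bp in siDLEU1, where it was the widest of the 17672 regions. It began just upstream of the start and ran into the exon in both. The summit held 183 and 138 fragments, and the percentile was 93.8 and 89.3. The ratio of summit coverage was 0.585 (0.466 to 0.734), close to the median of all genes. A small region upstream at -671 bp grew from 296 to 561 bp and from 34 to 51 fragments. Among the 9 loci, only HOTAIR differed less in H3K27ac percentile than NEAT1.

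The H3K4me3 cover of NEAT1 differed more. In siCONT a region of 16401 bp, the widest of the 58582, ran over the start (chr11:65183590-65199990). In siDLEU1 the same stretch was split, with parts of 5140 and 7663 bp as the longest. Covered length was 22236 and 17864 bp, or 89.8% and 72.1% of the locus. The strongest region was near the top of both lists, at 99.86 and 99.98. Its summits lay at -3234 and -3265 bp from the start, upstream of the locus, with a ratio of summit coverage of 1.18 (0.990 to 1.39). In siDLEU1 the 7663-bp part over the start had 243 fragments and a percentile of 99.95. The summit ratio at this upstream site was thus near the median of all genes, while less of the locus lay inside regions.

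MIR31HG is the host gene of miR-31 (ENSG00000171889, chr9:21380072-21559890, minus strand). Its H3K27ac region at the start was among the strongest of the siCONT list, at a percentile of 99.5. It spanned 3071 bp in siCONT (chr9:21557393-21560463) with 193 fragments at the summit. In siDLEU1 it was a region of 1697 bp with 128 fragments and a separate one of 368 bp upstream. The percentile was 82.8 in siDLEU1, and by fragments it was 98.9 and 94.1, with a local control of 1.24 and 2.41 times the background. The ratio of summit coverage, 0.515 (0.408 to 0.647), was the lowest of the 7 loci and at or above that of 12.2% of genes.

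In intron 1 of MIR31HG, 3777 bp from the start, the values were higher in siDLEU1. A 487-bp region with 21 fragments in siCONT was 517 bp with 41 fragments in siDLEU1, a ratio of summit coverage of 1.52 (0.875 to 2.699). Beside it a region of 343 bp with 29 fragments was called in siDLEU1 alone, the only H3K27ac region of the 10 loci with no siCONT partner. H3K4me3 covered 15390 and 15317 bp, in 6 regions in siCONT and 13 in siDLEU1. The longest was 9448 bp and became 6771 bp, with a ratio of summit coverage of 1.42 (1.17 to 1.72). The interferon genes IFNA2, IFNA8, IFNA1 and IFNE and the miRNA gene MIR31 lie inside the MIR31HG body in this annotation. None of them overlapped a region of either mark in any list.

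**Figure D4:**
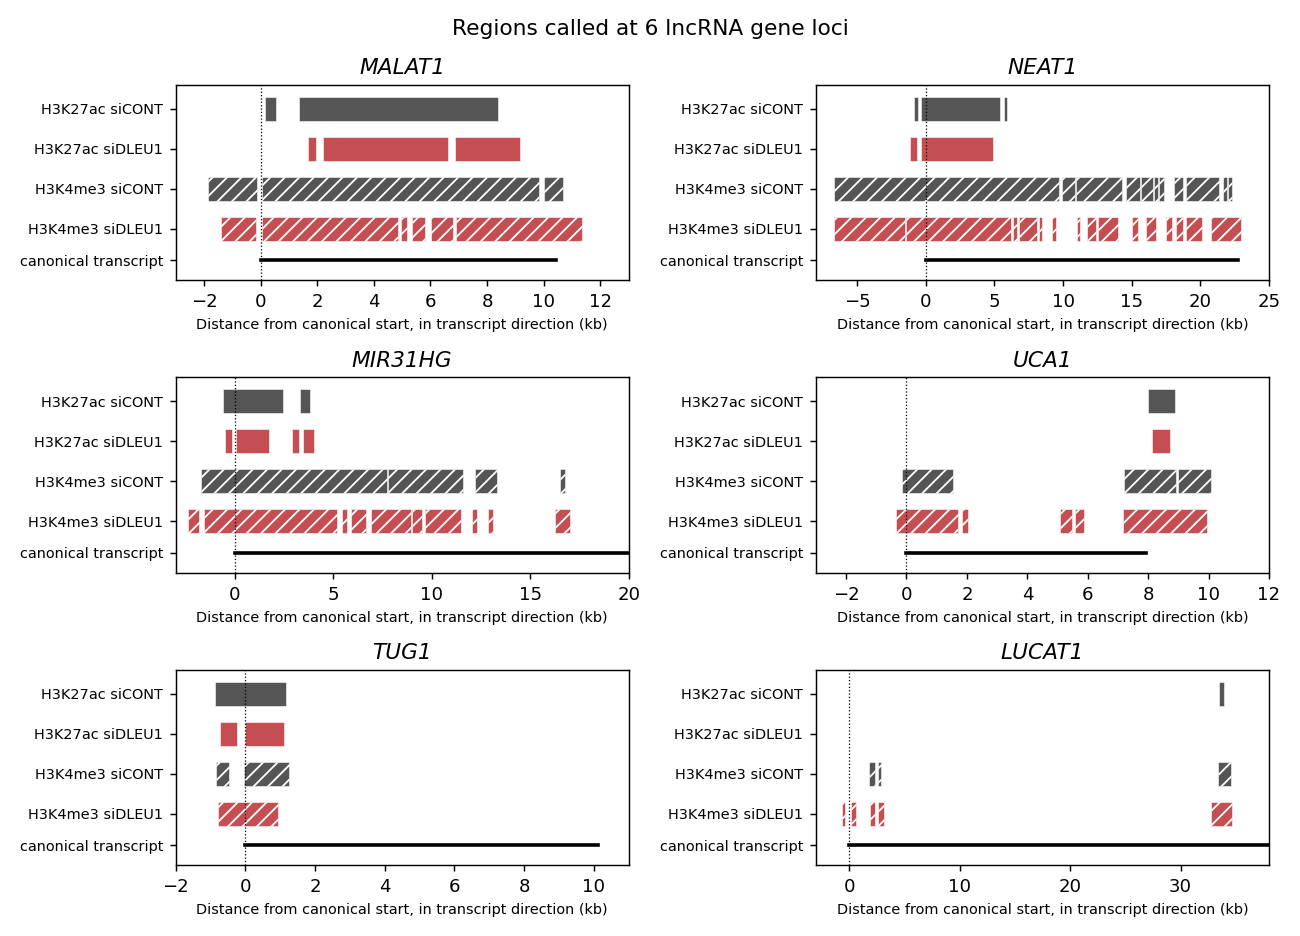
Regions of H3K27ac (plain bars) and H3K4me3 (hatched bars) called in the siCONT (grey) and siDLEU1 (red) libraries at 6 loci, against distance in kb from the canonical start in the direction of transcription, with the canonical transcript as a black line, cut at the panel's edge for MIR31HG and LUCAT1. The 7012-bp H3K27ac region of MALAT1 and the 16401-bp H3K4me3 region of NEAT1 were each called as several regions in siDLEU1, UCA1 had H3K27ac only at its 3′ end, and the LUCAT1 H3K27ac region was called in siCONT only.

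UCA1 is ENSG00000214049 (chr19:15939016-15947138, plus strand). Its start carried H3K4me3 without H3K27ac. The H3K4me3 region there was 1668 bp in siCONT (chr19:15938875-15940542) and 2068 bp in siDLEU1, with 52 and 94 fragments at the summit. Its percentile was 64.5 and 90.7, and the local control equalled the genome background in both. The ratio of summit coverage was 2.48 (1.75 to 3.55), at or above that of 93.8% of the 44741 H3K4me3 regions with a partner, whose median was 1.22. This start also lies within the antisense lncRNA gene LINC01764. A further 3 H3K4me3 regions of 191 to 398 bp were called in the UCA1 introns in siDLEU1 only.

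A separate, stronger site lay at the 3′ end of UCA1. The H3K27ac region there had 874 bp in siCONT (chr19:15947019-15947892), of which 120 bp were inside the locus, and 606 bp in siDLEU1 (chr19:15947141-15947746). The siDLEU1 region began 3 bp past the end of the gene, so the count of 0 for UCA1 in siDLEU1 comes from the edge of the locus. The region itself was called in both, with 101 and 64 fragments and percentiles of 77.8 and 59.5. The ratio of summit coverage was 0.492 (0.354 to 0.679), at or above that of 9.17% of the 15334 H3K27ac regions with a partner. H3K4me3 at the same site was at percentiles of 98.9 and 99.7, with a ratio of 1.47 (1.19 to 1.82). The starts of LINC01764 and of ENSG00000288618, both antisense, lay inside this H3K4me3 region, and no UCA1 start did. At this site the H3K27ac ratio was thus below the median of all regions (0.621) and the H3K4me3 ratio above it (1.22).

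LUCAT1, named for a link to lung cancer, is ENSG00000248323 (chr5:90350651-90610364, minus strand). A single H3K27ac region of 506 bp with 60 fragments (chr5:90576261-90576766) was called in siCONT, at a percentile of 32.6, and none in siDLEU1. It lay in intron 3, with its summit 31081 bp from the nearest LUCAT1 start, and overlapped ENSG00000234292 and ENSG00000286638. Of all H3K27ac regions in siCONT, 22.2% had no partner in siDLEU1. H3K4me3 at this site was 1177 bp long in siCONT and 1897 bp in siDLEU1 (chr5:90575586-90577482), with 79 and 86 fragments and percentiles of 70.2 and 78.0. The ratio of its summit coverage was 1.49 (1.09 to 2.05).

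At a LUCAT1 start downstream of the canonical one, H3K4me3 regions of 571 and 480 bp were called (siCONT at chr5:90607835-90608405), with 64 and 68 fragments and no H3K27ac. A pair of weak H3K4me3 regions near the canonical start, of 420 and 341 bp with 20 and 32 fragments, were called in siDLEU1 only. The whole locus held 9 and 10 H3K4me3 regions over 5569 and 5794 bp. Part of it overlaps ADGRV1, a protein-coding gene on the other strand.

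The strongest H3K27ac summits of MALAT1, UCA1 and LUCAT1 lay away from the canonical starts. The 150 bases around each siCONT summit are shown because these are the sites where a domain split, crossed the gene's end or was not called again. They read from GRCh37 5′ to 3′ along the gene's strand, in lower case because they held none of the motifs. No summit window of the 9 loci did, and over all 19705 siCONT summits the shares were 1.96% for TGANTCA, 4.68% for GAAANNGAA and 1.79% for TATAAA. MALAT1 had a GC content of 42% and no CpG in its window, UCA1 72% and 10 CpG, and LUCAT1 68.7% and 13 CpG, with a median GC content of 65.3% over all summits.
MALAT1 summit, chr11:65268880-65269029, plus strand: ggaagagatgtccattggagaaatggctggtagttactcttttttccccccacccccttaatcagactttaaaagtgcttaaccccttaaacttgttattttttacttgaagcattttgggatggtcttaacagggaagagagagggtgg
UCA1 summit, chr19:15947490-15947639, plus strand: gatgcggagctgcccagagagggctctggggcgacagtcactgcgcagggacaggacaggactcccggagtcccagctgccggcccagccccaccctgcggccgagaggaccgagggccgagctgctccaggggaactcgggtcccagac
LUCAT1 summit, chr5:90576541-90576690, minus strand: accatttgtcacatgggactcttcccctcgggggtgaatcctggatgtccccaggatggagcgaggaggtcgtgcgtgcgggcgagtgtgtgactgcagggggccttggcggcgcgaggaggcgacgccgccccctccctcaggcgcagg

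PVT1 (ENSG00000249859, plus strand of chromosome 8) is a long lncRNA gene of 392576 bp. Its H3K27ac regions lay at the start in both lists. Regions of 1039 and 395 bp in siCONT were a single region of 1633 bp in siDLEU1, and covered length was 1434 and 1633 bp. The summit held 120 and 104 fragments, a ratio of summit coverage of 0.673 (0.512 to 0.882), at or above that of 71.7% of genes. By fold the percentile was lower in siDLEU1, at 85.6 and 69.4, with a local control of 1.13 and 2.28 times the background. By fragments it was higher, at 79.2 and 82.8. The direction at PVT1 thus depended on the measure.

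H3K4me3 at PVT1 was spread over 40 regions in siCONT and 35 in siDLEU1, most of them short, with median widths of 504.5 and 431 bp. They covered 31947 and 25639 bp, or 8.10% and 6.50% of the locus, a ratio of 0.803. Of these, 11 and 5 had no partner in the other list. Over the 10 loci, 27 of 102 siCONT regions (26.5%) and 24 of 123 siDLEU1 regions (19.5%) had none, against 23.6% and 21.2% of all H3K4me3 regions. The corresponding H3K27ac counts were 3 of 14 (21.4%) in siCONT, at MALAT1, NEAT1 and LUCAT1, and 1 of 14 (7.14%) in siDLEU1, where 1.24% of all regions had none. The strongest H3K4me3 regions of PVT1 in the 2 lists were at different positions in intron 2, so their ratio of 0.936 (0.741 to 1.18) does not compare the same site.

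TUG1 (ENSG00000253352, chr22:31365231-31375381, plus strand) faces MORC2 across a short stretch. In siCONT an H3K27ac region of 2024 bp (chr22:31364386-31366409) held both starts, and in siDLEU1 it was split into 494 bp at MORC2 and 1118 bp at TUG1. The summit held 69 and 66 fragments, with a ratio of summit coverage of 0.742 (0.522 to 1.06), at or above that of 87.0% of genes. The percentile was 55.0 and 61.7. H3K4me3 went the other way in shape, from regions of 365 and 1293 bp to a single region of 1730 bp over both starts. Its summit held 78 and 97 fragments, at percentiles of 80.8 and 91.4. The ratio was 1.70 (1.25 to 2.33), the highest of the 9 loci for H3K4me3 and at or above that of 89.2% of genes. The local control equalled the background at these TUG1 regions in all 4 lists.

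HOTAIR, an lncRNA known for its work with chromatin-modifying complexes, is ENSG00000228630 (chr12:54356092-54368740, minus strand). Its H3K27ac region was 1753 bp in siCONT (chr12:54366814-54368566) and 1608 bp in siDLEU1, in intron 1, where HOXC11 starts on the other strand. The summit had 78 and 64 fragments, with percentiles of 60.5 and 59.5 and a ratio of 0.637 (0.450 to 0.898), close to the median of all genes. H3K4me3 spanned 2320 bp in siCONT, and 1892 and 242 bp in siDLEU1, with a ratio of 0.998 (0.717 to 1.38). The region cannot be given to HOTAIR or to HOXC11 alone.

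H19, the imprinted lncRNA gene that hosts miR-675 (ENSG00000130600, chr11:2016396-2025782, minus strand), was the only locus with no H3K27ac in either list. It had no H3K4me3 in siCONT. In siDLEU1, H3K4me3 regions of 219 and 296 bp (chr11:2019452-2019670 and chr11:2019768-2020063) were called in intron 1 of the canonical transcript, each with 26 fragments and at a percentile of 11.5. The median summit of that list held 41 fragments.

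CYTOR (ENSG00000222041, chr2:87754300-87936259, plus strand) has a near-identical copy. Alignments with MIR4435-2HG covered 99.8% of its locus at 99.2% identity, so reads may be placed at either gene and the values of CYTOR are uncertain. Its H3K27ac region at the start was 671 bp in siCONT (chr2:87755088-87755758) and 740 bp in siDLEU1, with 33 and 52 fragments. The percentile was 12.6 and 23.2. The ratio of summit coverage was 1.22 (0.776 to 1.95), at or above that of 99.7% of genes. The lncRNA genes NCAL1, on the same strand, and LINC01943, antisense, also overlap this H3K27ac region in both lists. It cannot be given to CYTOR alone. At the MIR4435-2HG start, the H3K27ac region had 25 and 33 fragments, and its percentile was 0.107 and 18.1. Its summit coverage there was 16.8 and 17.2, and the local control was 4.02 times the background in siCONT and at the background in siDLEU1. The strongest H3K27ac region of MIR4435-2HG, elsewhere in the gene, was at percentiles of 77.8 and 64.7, with a ratio of summit coverage of 0.530.

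H3K4me3 at CYTOR was shorter in total and more divided in siDLEU1, with 28 regions over 31230 bp and 34 regions over 23513 bp, a ratio of 0.753 and the lowest of the 9 loci. The longest region was 4827 bp in siCONT and 2877 bp in siDLEU1. At MIR4435-2HG, H3K4me3 covered 36796 and 26219 bp. The strongest H3K4me3 region of CYTOR, in intron 2, ranked alike, with percentiles of 96.7 and 96.9 and a ratio of summit coverage of 1.09 (0.862 to 1.37).

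A list of other cancer-related lncRNA genes was used for comparison, of which 23 of 24 names were found. For H3K27ac, 19 had a region in siCONT, and covered length was 44997 and 37748 bp, a ratio of 0.839 against 0.900 at the 10 loci. It was lower at 15, against 94.1% of all genes, and at least 1.5 times lower at 5, against 32.2%. None was at least 1.5 times higher, against 0.346%. By ratio, the largest falls were at HOTTIP, a lncRNA of the HOXA cluster, from 1387 to 298 bp, and at PCAT6, from 1318 to 612 bp. In base pairs, CDKN2B-AS1 (6368 to 4517 bp) and LINC-PINT (3965 to 2764 bp), named after their values were seen, lost more. The largest rises were at the small nucleolar RNA host genes GAS5, from 2204 to 2961 bp, and SNHG1, from 1836 to 2470 bp. The H3K27ac percentile by fold was lower at 12 of the 19 genes, against 63.2% of all genes. It was at least 10 points lower at 9, against 37%, and at least 10 points higher at 3, against 16.5%. The median change was -7.47 points, against -16.2 at the 10 loci and -4.79 over all genes. The median ratio of summit coverage was 0.584, against 0.637 at the 10 loci. For H3K4me3, the covered ratio was 0.873 over 18 genes and the median ratio of summit coverage 1.28.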

How the data were processed

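H3K27ac and H3K4me3 ChIP-seq of HSC3 cells was used, with 1 library for each mark under each siRNA. Reads from an Ion Proton were mapped by the authors (bowtie2, hg19), who called peaks per library with MACS2. Its settings and control library are not given in the sources used here, and the input libraries (2) were not used here. In the deposited lists the fold ratio is enrichment over the local control, and −log10 p and −log10 q are those of MACS2. The deposited score, a display value, was not used.

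The members and lists were chosen with earlier results of these data known. Chromosomes 1 to 22 and X, GENCODE genes with a curated RefSeq transcript and GRCh37 were used. Loci were measured by region count, covered length, percentile rank of fold, and recovered fragments at the summit. Regions were matched by an overlap of at least 1 bp. On simulated lists, fragments were recovered for 100% of 11881 peaks. All 10 members were named, with overlapping genes, DLEU1, MIR4435-2HG, and the 2 largest falls and rises in H3K27ac length, by ratio, of the comparison list. Of that list, CCAT1 matched no gene of the set. A marker gene and a promoter sequence are not reported here.

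The alternatives tried were regions with −log10 q from 10 upwards, equal numbers of regions, the gene body alone or with 5 kb upstream, 1 kb around start sites, regions within 1 kb stitched, a mutual overlap of 50%, and ranks by −log10 p, width or fragments. A locus with 2 kb on both sides, and the set without CYTOR, were added after seeing the data. Samples were grouped by their labels. Python 3.11.15, numpy 2.4.6, pandas 2.3.3, scipy 1.17.1, matplotlib 3.10.9, pysam 0.24.0 and samtools 1.23.1 were used, with blastn for the copy of CYTOR.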

Additional observations from a re-analysis of the deposited data

How the results depend on the processing

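No paired analysis was possible because each mark has a single library per siRNA, so no replicate could be left out either. The 12 values that summarise the 10 loci were recomputed 102 times over the alternatives. A count was taken as kept within 1.5 times, and a ratio within a narrower limit. Only a ratio could be labelled reversed. Of the 102 values, 83 were kept, 18 moved and 1 reversed. Kept counts still varied, with the H3K27ac percentile lower at 5 loci by width and 6 by fragments, in place of 7, and the H3K4me3 percentile lower at 6 by width, in place of 4. H3K4me3 length was lower at 4 loci with stitching and at 8 for the gene body alone, in place of 6. The covered length of H3K4me3 had a ratio of 1.08 within 1 kb of start sites, in place of 0.861, since only the length near starts is counted there. In the same windows, covered length was lower at 4 loci for H3K27ac and at 3 for H3K4me3. The number of siCONT H3K27ac regions with no partner in siDLEU1 was 1 of 10 near starts and 1 of 9 with stitching. With an overlap of 50% it was 5 of 14. In the other direction it was 0 of 12 near starts, 0 of 8 with stitching and 0 of 8 at a −log10 q of at least 10. It was 2 of 14 with equal numbers of regions and 6 of 14 with an overlap of 50%. For H3K4me3, the siCONT regions with no partner were 8 of 42 at the stricter q and 2 of 23 near starts. They were 13 of 53 with stitching and 62 of 102 with an overlap of 50%. The siDLEU1 regions with no partner were, in the same order, 9 of 47, 8 of 33, 6 of 51 and 83 of 123. Shares over all regions were not computed at these settings. The H3K27ac percentile of PVT1 was higher in siDLEU1 by 28.1 points when ranked by width and by 3.63 when ranked by fragments, and the cause was not tested.

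Depth limits what can be read at the weakest calls. H19, the intron 1 regions of MIR31HG and the H3K27ac region of CYTOR rest on 21 to 52 fragments. For H3K4me3, siCONT and siDLEU1 had 28.4 M and 22.3 M reads, with median region widths of 532 and 502 bp. For H3K27ac they had 21.5 M and 29.4 M reads, with median widths of 750 and 608 bp. The part of depth in splits and shorter cover was not tested. The share of regions split over a whole list was not computed. Intervals cover counting error only, not the spread between cultures or immunoprecipitations. A single summit coverage is relative to the mean of its library, so a change of all regions alike would not show apart from the shift of the medians.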
